A study of Mus musculus with 8 samples.

Results

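Cluster 6 is 1 of 7 populations of mouse bone marrow stromal cells that were separated by their surface proteins, and its RNA-seq library was set against the libraries of the other 6, clusters 1 to 5 and 7. Members were the genes with 50 or more counts in the cluster 6 library, which were 12587 of the 49315 genes listed, and 36519 genes had a count in any sorted cluster. By the labels all populations came from wild type C57BL/6J mice, 6 weeks after birth, with no treatment named, while the methods of the study name C57BL/6JJcl mice and an age range that runs past 6 weeks. Each population was sequenced as 1 library, made by poly(A) selection from total RNA. How many animals were pooled is not given in the sources used here, and the extraction text of the labels speaks of crushed marrow while the titles name the sorted clusters. In the sort plots of the study, cells lacking CD31, CD45 and Ter119 were sorted, and cluster 6 was taken as CD24 positive, CD39 negative and Sca-1 negative. Among the others, cluster 2 was negative for Ly-6C, CD24 and CD39, cluster 3 was positive for Ly-6C and CD24 and negative for CD39 and CD54, cluster 1 was Sca-1 and CD39 positive and CD24 negative, clusters 4 and 5 were CD54 positive and negative for CD24 and Ly-6C, with cluster 5 also negative for CD121b, and cluster 7 was Sca-1 positive and negative for CD24, CD54 and Ly-6C. The comparison asks which transcripts set cluster 6 apart from the rest of the marrow stroma.

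The stroma of the marrow holds cells of several skeletal lineages. Osteoblasts lay down a matrix of type I collagen and then mineralise it: tissue-nonspecific alkaline phosphatase frees phosphate, and acidic phosphoproteins of the matrix such as bone sialoprotein, osteopontin and dentin matrix protein bind calcium and guide crystal growth. Cartilage cells instead secrete type II, IX and XI collagens with aggrecan, and when they enlarge ahead of bone formation they add type X collagen. Stromal cells that are not building matrix hold blood stem cells in the niche through factors such as CXCL12 and stem cell factor, and fibroblast-like progenitors around vessels carry Sca-1 and CD34.

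The cluster 6 library held 31669132 counts, against 12833648 in the shallowest library, cluster 5, and 33238133 in the deepest, cluster 7. Expression was taken as RPKM, the counts of a gene divided by its length in kilobases and scaled to the total of the library, after 3 loci with very uneven reads were left out, which held 1.41% of the counts of cluster 6 and up to 34.8% in cluster 5. A gene's difference is log2(RPKM + 1) in cluster 6 minus the median, the highest or the lowest of the other 6 libraries, so differences of weakly expressed genes are understated. With 1 library per population no test between populations could be made: a rank of cluster 6 alone among 7 libraries cannot give a one-sided permutation p below 0.143. Intervals given here are exact 95% binomial intervals of count ratios; they cover counting error only, not the spread between animals or sorts, and PCR copies were not separated. In bulk RNA a smaller share of a cell type and less RNA per cell cannot be told apart.

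Across the 12587 genes, 475 (3.77%) lay more than 2-fold above the median of the other clusters and 1063 (8.45%) more than 2-fold below it. A stricter set of 27 genes (0.215%) lay more than 2-fold above the highest of the other 6, and 189 (1.5%) more than 2-fold below the lowest of them. The high genes included Ibsp, Gdf6 and Alpl and other genes of bone matrix and mineralisation, and cartilage genes that cluster 2 also carried, while the low genes included Ly6a, chemokines, niche factors and genes of fibroblasts and tendon. With no fold limit, 983 genes (7.81%) were above the highest of the others and 4382 (34.8%) below the lowest. Leaving a library out can only add to the sets of extremes, and all 27 and all 189 genes stayed each time. The sets grew most without cluster 2, where 177 genes exceeded and 300 fell short of every remaining library by more than 2-fold. Without cluster 3, 59 genes exceeded every remaining library by that limit. The split between higher and lower genes depended on the scaling of the libraries. Collagen genes took 28.5% of the counts in cluster 6 and 9.07% to 15.1% in the others, and Col1a1 alone took 10.6%. The median of all differences was -0.21 with RPKM, 0.11 with the TMM factors of edgeR, and 0.02 when collagen genes were left out of the total. Of the genes past 2-fold from the median, 30.9% were higher with RPKM, 63.6% with TMM factors (876 higher, 502 lower) and 54.2% without collagen genes in the total (753 higher, 637 lower). The 27 genes more than 2-fold above every other library were all among the 101 such genes with TMM factors. This was fixed in advance: the TMM factor of cluster 6 was 0.772, against 0.956 to 1.116 in the others. Its values thus rose relative to every other library, and none of the 27 could be lost. Of the 189 genes more than 2-fold below every other library, 96 stayed past that limit. For each gene list described here, members are counted as above or below where they lay more than 2-fold from the median of the other clusters, and the median over members with at least 50 counts is that of the same difference. List counts are to be read against all 12587 genes. Of these, 3.77% lay above and 8.45% below with RPKM, and 876 lay above and 502 below with TMM factors.

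**Figure D1:**
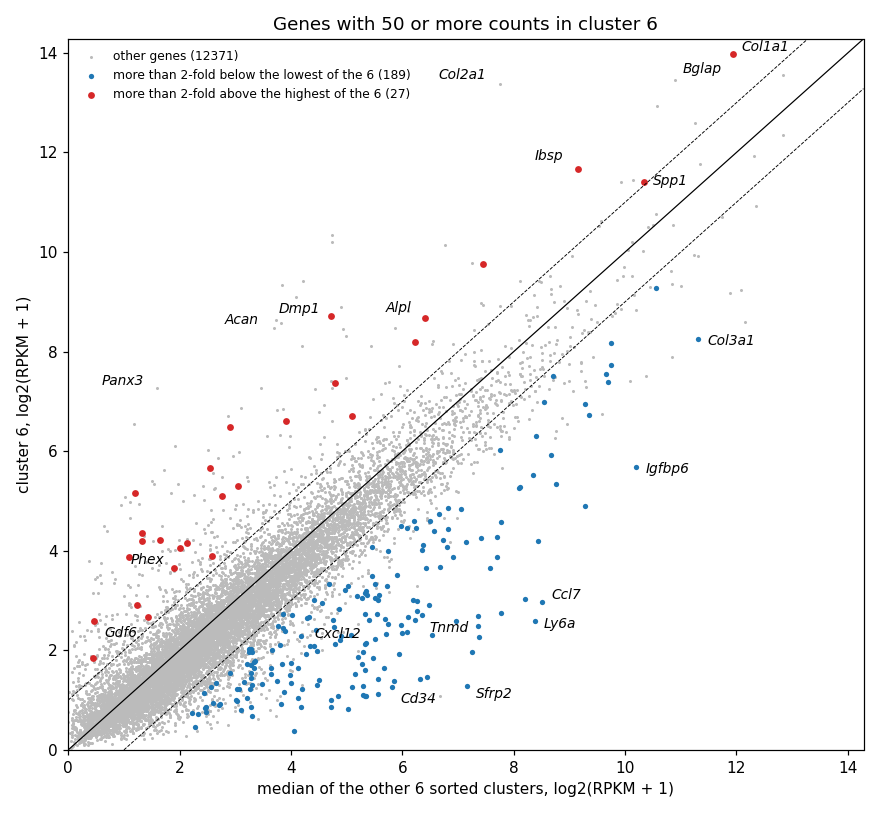
Each point is 1 of 12587 genes, placed by the median of the other 6 libraries (x axis) and by cluster 6 (y axis), both as log2(RPKM + 1), with the diagonal and 2-fold lines. The 27 genes in red include Ibsp, Alpl, Dmp1 and Col1a1, the 189 in blue include Ly6a, Ccl7 and Sfrp2, and cartilage genes such as Col2a1 and Panx3 lie far above the diagonal in grey because cluster 2 was also high.

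**Figure D2:**
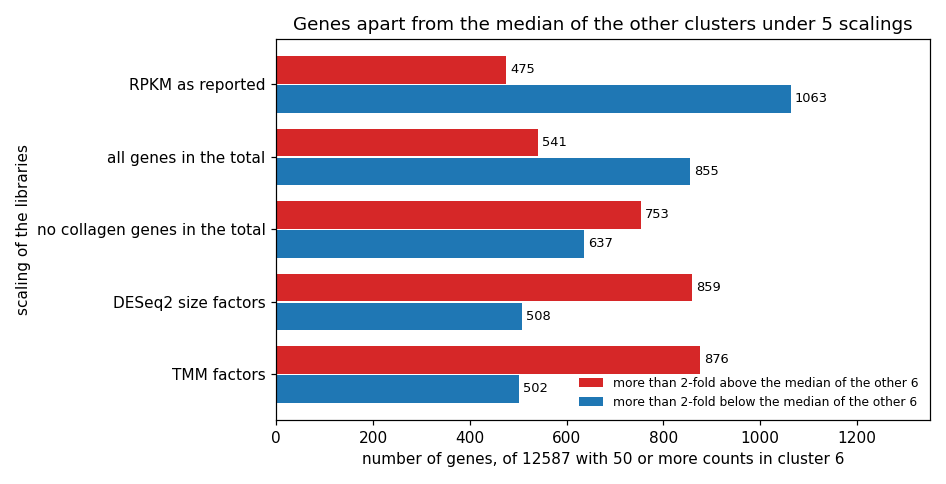
Bars count the genes more than 2-fold above (red) and below (blue) the median of the other 6 clusters under 5 scalings of the libraries. The lower genes outnumbered the higher ones with RPKM (1063 against 475), and the order turned with TMM factors (502 against 876).

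The genes of the sorted proteins were read first. Cd24a, which encodes CD24, was at 139 RPKM in cluster 6, and at 56.7, 141, 50.7, 53.6, 120.4 and 72.4 in clusters 1, 2, 3, 4, 5 and 7; the same order of the other clusters is kept wherever 6 values follow. Ly6a, which encodes Sca-1 (chr15:74994877-74998031, as are all gene positions on GRCm38), was at 5.05 RPKM against 601, 87.4, 946, 435, 134 and 226. Entpd1, which encodes CD39, was at 4.58 RPKM against 8.72, 3.46, 2.3, 7.41, 7.43 and 13.9, so clusters 2 and 3 were lower than cluster 6 and the other 4 were higher. Cd24a went against the gates: cluster 2, sorted as CD24 negative, was as high as cluster 6, and cluster 3, sorted as CD24 positive, was the lowest of the 7. Icam1, which encodes CD54, was at 19.9 RPKM against 75.4, 15.1, 11.6, 239, 68.3 and 150.0, and Il1r2, which encodes CD121b, at 74.2 against 55.7, 48.5, 22.3, 77.4, 118 and 178. Ly6c1, a Ly-6C gene whose near-identical copy Ly6c2 may share its reads, was at 6.53 RPKM against 215, 36.7, 416, 123, 41.6 and 53.9. These 3 genes also went against the gates in part. Icam1 was higher in CD54 negative cluster 7 than in CD54 positive cluster 5. Il1r2 in cluster 5, sorted as CD121b negative, was below only cluster 7. Ly6c1 in cluster 4, sorted as Ly-6C negative, was below only clusters 1 and 3. Pdgfra, which encodes CD140a, one of the antibody targets of the study, was at 7.55 RPKM against 28.6, 4.88, 18.3, 19.99, 11.5 and 26.5, with only cluster 2 lower than cluster 6. Of the 10 sort and gate genes, each with at least 50 counts, 1 lay above and 4 below (median -0.58), or 1 above and 3 below with TMM factors (median -0.26). These genes stand for proteins used in the gates, and their differences are no finding. The transcript of CD45, Ptprc, was at 4.07 RPKM in cluster 6 against 2.97, 2.87, 1.72, 2.79, 2.76 and 9.28, although all populations were sorted as CD45 negative.

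Of 4 genes taken as markers of this population, Ibsp, Gdf6 and Alpl were higher than in any other cluster and Bglap was not. Ibsp, Gdf6 and Alpl also head the named genes ranked by difference to the highest in these same data. Their being highest is therefore a description and no separate evidence. Ibsp encodes bone sialoprotein, an acidic matrix protein that binds calcium, and lies at chr5:104299171-104311469 on the plus strand. Its level was 3238 RPKM in cluster 6 and 200.5, 798, 453, 683, 337 and 742 in the others. The cluster 6 value stood 4.06-fold above cluster 2 (95% interval 4.01 to 4.1) and the difference was 2.54 to the median and 2.02 to the highest. Alpl encodes tissue-nonspecific alkaline phosphatase (chr4:137741733-137796384, minus strand) and was at 409.7 RPKM against 26.99, 138, 86.6, 81.4, 76.4 and 99.7. It was 2.97-fold above cluster 2 (95% interval 2.91 to 3.03). Gdf6, a bone morphogenetic protein family ligand (chr4:9844372-9862345, plus strand), was weak, at 5.0 RPKM from 551 counts against 0.346, 0.162, 0.414, 0.598, 0.203 and 0.47 RPKM. It was 8.36-fold above cluster 4 (95% interval 6.49 to 10.9), the largest ratio of RPKM to the next library among the 4 markers. On the log2(RPKM + 1) scale its difference to the highest was 1.91, under the 2.02 of Ibsp. Bglap, which encodes osteocalcin (chr3:88383501-88384464, minus strand), was at 11190.0 RPKM against 259, 3543, 14245, 192, 7821 and 276. Cluster 6 was second to cluster 3 and above cluster 5, cluster 2 followed, and clusters 1, 4 and 7 were far lower. The neighbouring Bglap2 showed the same order, at 7843 RPKM against 204, 2687, 10108, 196, 5091 and 370.2, and so did Bglap3 at 14.9 against 0.336, 3.65, 17.95, 0.283, 6.14 and 1.45. The 3 osteocalcin genes are near-identical copies, and how reads shared between them were counted is not given in the sources used here, so their separate values are uncertain.

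To show the regulatory sequence next to these genes, windows from 250 bases before to 50 bases after the RefSeq start (GRCm38.p6) were read for Ibsp (chr5:104299037-104299336, plus strand), Spp1 (chr5:104434861-104435160, plus strand), and Bglap (chr3:88384417-88384716, minus strand), since all 3 encode acidic or calcium-binding proteins of the mineralising matrix and were high here. Capitals mark the core letters TGTGGT of RUNX factors, searched on both strands as TGTGGT and ACCACA; RUNX2 is the master regulator of osteoblasts.
Ibsp: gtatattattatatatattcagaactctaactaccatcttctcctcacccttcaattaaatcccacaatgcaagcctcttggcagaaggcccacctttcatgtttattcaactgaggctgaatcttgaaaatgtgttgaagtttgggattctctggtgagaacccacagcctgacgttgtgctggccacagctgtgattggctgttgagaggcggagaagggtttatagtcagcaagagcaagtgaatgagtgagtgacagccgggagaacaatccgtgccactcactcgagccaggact
Spp1: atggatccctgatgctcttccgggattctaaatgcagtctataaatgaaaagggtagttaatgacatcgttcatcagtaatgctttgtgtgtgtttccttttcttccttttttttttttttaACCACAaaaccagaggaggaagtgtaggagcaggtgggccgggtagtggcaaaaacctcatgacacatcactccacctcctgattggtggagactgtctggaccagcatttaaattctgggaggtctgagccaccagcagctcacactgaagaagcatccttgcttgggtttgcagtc
Bglap: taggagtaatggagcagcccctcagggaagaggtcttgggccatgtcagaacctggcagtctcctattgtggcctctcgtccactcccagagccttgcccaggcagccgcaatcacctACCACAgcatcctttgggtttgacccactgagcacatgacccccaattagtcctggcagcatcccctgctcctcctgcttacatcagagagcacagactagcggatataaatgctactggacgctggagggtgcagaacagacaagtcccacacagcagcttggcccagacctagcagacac
The letters read ACCACA at position -128 relative to the Spp1 start and at -132 relative to the Bglap start, and were not found in the Ibsp window. Spp1 and Dmp1 each have a second window in the table; that of Spp1 held no match, and 1 of the 2 of Dmp1 did, at -164. Neither window of Alpl held the letters, nor did those of Phex and Omd. Promoter windows were matched for 20 of the 27 genes that exceeded every other library by more than 2-fold, and 5 of them (25%) held the core, against 5113 of 27025 genes with a window in the table (18.9%) and 62 of 344 genes (18%) more than 2-fold above the median. Counted by window the shares were close, with 5 of 29 (17.2%) for these genes against 5506 of 32851 (16.8%) for all. The homeodomain core TAATTA was in 1 of the 20 (5%) against 6.12% of all genes, and the cAMP response element TGACGTCA in 1 of the 20 against 2.03%. A match is a description of letters, not of binding.

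The acidic phosphoproteins of bone and tooth lie in 1 stretch of chromosome 5, and 4 of 5 genes read there had their highest level in cluster 6. Spp1, osteopontin (chr5:104435118-104441050), was at 2719 RPKM against 198, 1277, 1273, 1327, 1307 and 1302. Clusters 2, 3, 4, 5 and 7 lay close together and cluster 1 lay far lower, while cluster 6 was 2.05-fold above cluster 4 (95% interval 2.03 to 2.07). Dmp1, dentin matrix protein 1 (chr5:104202613-104214102), which in bone marks cells being embedded in matrix as osteocytes, was at 421 RPKM against 3.58, 39.97, 206, 10.1, 58.6 and 10.7. It was 2.04-fold above cluster 3 (95% interval 2.0 to 2.08), with a difference to the median of 4.27, which ranged from 3.36 to 5.17 when 1 of the other libraries was left out. Mepe, another osteocyte phosphoprotein, was at 1.81 RPKM from 95 counts against 0.025 to 1.2, 1.51-fold above cluster 4 (95% interval 1.09 to 2.1). Dspp, the dentin gene, had no count in cluster 6. Sost and Fgf23, secreted factors of mature osteocytes, had 15 and 7 counts in cluster 6, under the minimum of 50.

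Among 23 genes of bone matrix proteins, 22 had at least 50 counts; 10 lay above and 6 below (median 0.87), or 12 above and 4 below with TMM factors (median 1.29). Omd, osteomodulin, which binds mineral, was at 291 RPKM against 35.8, 56.1, 55.2, 144, 92.4 and 122, just past 2-fold above cluster 4 with a difference to the highest of 1.01. Meltf, the first gene outside the limit, had a difference to the highest of 0.998. Sparc, osteonectin, took 4.57% of the counts and was the highest of all libraries at 12054 RPKM against 4633, 8757, 9295, 9082, 5886 and 4653. Thbs1, thrombospondin 1, was at 500.0 RPKM against 99.03 to 396. The members on the low side included small leucine-rich proteoglycans and proteins of soft connective tissue. Aspn, asporin, was at 13.8 RPKM against 257, 122, 189, 223, 192 and 462, or 8.85-fold below cluster 2 (95% interval 8.28 to 9.46). Ogn, osteoglycin, was at 17.01 RPKM against 34.9 to 214, Postn, periostin, at 20.96 against 49.9 to 292, and Ecm1 at 75.7 against 126 to 898. Mgp, matrix Gla protein, an inhibitor of mineralisation, was at 464 RPKM against 807, 1406, 249, 2286, 1038 and 907, below every cluster but cluster 3. The list thus held members far above and far below the other clusters.

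Some collagens lay far above the other clusters, some far below, and the rest within 2-fold of their median. Col1a1, the main chain of bone collagen (chr11:94936224-94953042), was at 16180.0 RPKM against 4056, 3833, 6919, 1982, 7678 and 2603, 2.11-fold above cluster 5 (95% interval 2.1 to 2.11). Its partner chain Col1a2 was at 6174 RPKM against 2743, 2029.9, 4926, 2019, 2993 and 2122, with cluster 3 the nearest. Col24a1, a fibrillar collagen of bone, was at 15.6 RPKM against 1.38, 4.28, 6.85, 1.78, 6.81 and 1.46. Col11a2, a chain of the cartilage fibril, was at 1124 RPKM against 18.8, 642, 189, 80.4, 135 and 16.5, and Col13a1 at 21.4 against 1.26 to 12.1. By contrast Col3a1, the collagen of skin and vessel walls, was at 306 RPKM against 3364, 734, 2432, 2629.9, 1122 and 3189.6. Col14a1 was at 1.13 RPKM against 12.9 to 77.2, Col5a3 at 2.12 against 12.6 to 122, Col8a1 at 5.52 against 44.9 to 206, and Col18a1, a basement membrane collagen, at 1.01 against 5.81 to 54.8. Of 20 collagen genes in the list, all with at least 50 counts, 7 lay above and 5 below, with the same counts for TMM factors (median 0.09, or 0.45 with TMM factors). The list therefore held members at both ends.

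Of 31 genes of enzymes and chaperones that process collagen, all with at least 50 counts, 9 lay above and 2 below (median 0.59), or 15 above and 2 below with TMM factors (median 0.95). Loxl4, a lysyl oxidase that cross-links fibrils, was at 88.1 RPKM against 5.15, 42.5, 6.99, 6.84, 5.34 and 6.1, 2.07-fold above cluster 2 (95% interval 2.0 to 2.15). Outside the list, the prolyl hydroxylase P3h2 was at 33.3 RPKM against 3.11, 11.7, 5.55, 6.02, 2.18 and 6.96, 2.84-fold above cluster 2 (95% interval 2.65 to 3.05). Both had cluster 2 as the next library. Serpinh1, the collagen chaperone HSP47, was at 1587 RPKM against 721, 1339, 799.8, 479, 824 and 544, Plod2, a lysyl hydroxylase of bone collagen, at 132 with 142 in cluster 2, and Creb3l1, a transcription factor of collagen secretion, at 82.4 against 33.7 to 57.5. The 2 members on the low side were P4ha3, at 2.11 RPKM against 6.67 to 24.02, and Loxl1, the lysyl oxidase of elastic fibres, at 3.93 against 19.1 to 45.8.

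Of 20 mineralisation genes, 19 had at least 50 counts, and 10 lay above and 0 below (median 1.73), or 14 above and 0 below with TMM factors (median 2.05). Besides Alpl, Smpd3, a sphingomyelinase needed for mineralisation of bone and cartilage, was at 318 RPKM against 8.13, 201, 54.4, 12.1, 49.1 and 5.56. Phospho1, the phosphatase of matrix vesicles, was at 4.4 RPKM against 0.249, 3.77, 1.13, 0.122, 3.18 and 0.0892. Phex, an endopeptidase of osteoblasts and osteocytes that protects against phosphate wasting, was at 11.7 RPKM against 0.402, 4.23, 4.58, 1.63, 3.8 and 1.33, 2.55-fold above cluster 3 (95% interval 2.34 to 2.77). In each of these 3 genes clusters 1, 4 and 7 were the lowest and clusters 2, 3 and 5 lay between them and cluster 6. Ifitm5, a membrane protein of mineralising osteoblasts, was at 170.1 RPKM with 157 in cluster 3, the 2 values differing by 0.11 on the log2 scale. Slc8a3, a sodium-calcium exchanger, was at 49.4 RPKM against 3.41, 18.9, 9.4, 3.39, 6.21 and 2.97. Car12, a carbonic anhydrase, was at 24.1 RPKM against 0.288, 13.8, 1.96, 1.25, 1.04 and 0.679. Ank and Enpp1, which supply the mineralisation inhibitor pyrophosphate, were also highest in cluster 6, at 59.2 RPKM against 27.6 to 42.99 and 21.5 against 9.98 to 14.3, both within 2-fold of the median with RPKM and past it with TMM factors, where their differences were 1.24 and 1.04. The phosphate carriers Slc20a1 and Slc20a2 did not follow, at 20.98 RPKM against 13.7 to 26.6 and 2.47 against 3.2 to 5.66. The calcium-sensing receptor Casr was at 13.6 RPKM against 6.18, 1.36, 0.89, 0.895, 0.659 and 1.67, 2.2-fold above cluster 1 (95% interval 2.02 to 2.4).

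**Figure D3:**
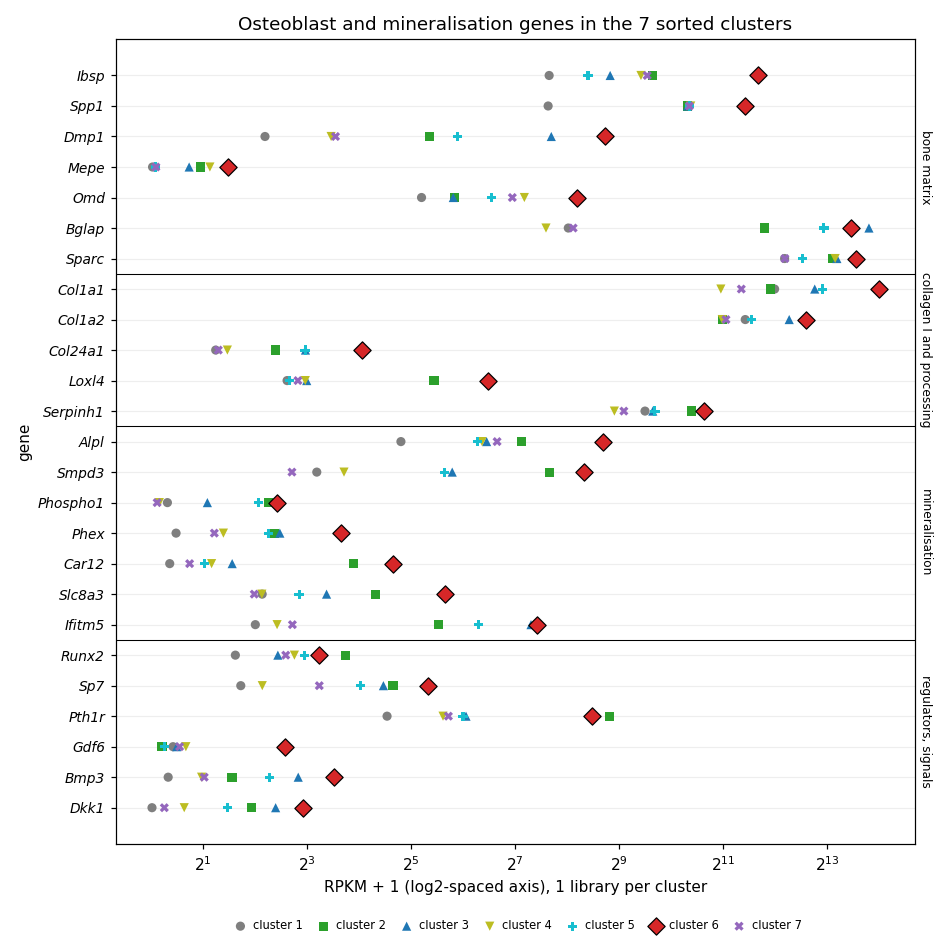
RPKM + 1 on a log2-spaced axis for 25 bone genes in the 7 libraries, 1 symbol per library. Cluster 6 (red diamonds) is the rightmost symbol for Ibsp, Spp1, Dmp1, Col1a1, Alpl and Phex, while cluster 3 passes it for Bglap and cluster 2 for Runx2 and Pth1r.

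Transcription factors of the osteoblast lineage had a smaller median difference than bone matrix proteins, 0.35 against 0.87. Runx2, which starts osteoblast differentiation, was at 8.35 RPKM in cluster 6 and 12.3 in cluster 2, with 2.09 to 12.3 over the other 6. Sp7, osterix, which acts downstream of Runx2, was highest in cluster 6 at 39.2 RPKM against 2.32, 24.2, 21.2, 3.42, 15.4 and 8.44. Mef2c was at 16.2 RPKM with 14.9 in cluster 2, Tcf7 at 12.7 against 1.56 to 9.17, and Dlx3 at 13.02 with 19.9 in cluster 3. Atf4, which drives amino acid supply in mature osteoblasts, was lower than in all others, at 135 RPKM against 356, 292, 266, 379, 265 and 241, and so were Msx1 at 3.65 against 6.44 to 28.7 and Twist1 at 13.6 against 24.3 to 35.6. Of 26 factors, 24 had at least 50 counts and 5 lay above and 3 below (median 0.35), or 7 above and 1 below with TMM factors (median 0.63).

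Receptors and secreted signals of osteoblasts were examined next. Pth1r, the parathyroid hormone receptor, was at 357 RPKM in cluster 6 and 448 in cluster 2, against 22.3 to 65.6 in the remaining 5. Tnfrsf11b, osteoprotegerin, which blocks osteoclast formation, was at 96.98 RPKM against 14.1, 26.9, 74.5, 46.9, 14.1 and 24.4. Its target Tnfsf11, RANKL, was at 2.01 RPKM against 5.01, 3.29, 1.29, 8.87, 6.68 and 15.3. Cluster 6 thus had the highest osteoprotegerin and the second lowest RANKL transcript level of the 7. The sphingosine-1-phosphate exporter Spns2 was at 16.8 RPKM against 1.33, 4.17, 7.53, 1.12, 4.89 and 2.57. The sphingomyelin synthase Sgms2 was at 104 RPKM against 18.3, 49.4, 36.3, 22.7, 35.4 and 31.02. Cdh2, N-cadherin, was at 11.3 RPKM against 0.903 to 7.79, and Lgr6, a receptor for R-spondins, at 10.7 against 0.252 to 5.16. Of 32 genes in this list, 29 had at least 50 counts and 10 lay above and 5 below (median 0.45), or 13 above and 3 below with TMM factors (median 0.71). The syndecan Sdc3 was at 164 RPKM against 14.5, 65.2, 27.7, 25.8, 18.1 and 29.8, 2.52-fold above cluster 2 (95% interval 2.46 to 2.58). The basement membrane protein Nid2 was at 96.2 RPKM against 17.95, 37.6, 7.16, 17.2, 2.86 and 10.8. The cartilage lectin Clec3a was at 862 RPKM against 32.6, 293, 244, 382, 61.5 and 104. The secreted protein Scube1 was at 17.3 RPKM against 0.545 to 6.75, the transporter Flvcr2 at 19.6 against 0.65 to 7.85, the inositol transporter Slc2a13 at 5.36 against 1.08 to 2.04, the trafficking gene Rgp1 at 17.6 against 1.23 to 6.41, and the folate receptor gene Folr2 at 2.61, from 126 counts, against 0.163 to 0.74. The rest of the 27 were the pseudogene Itih5l-ps, at 34.8 RPKM against 0.235 to 13.6, the light-chain segment Iglv1, a B cell gene, at 38.3 against 2.97 to 18.1, and 2 genes of chondroitin sulphate synthesis, Chsy3 and Chst3.

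The BMP family was read as ligands, antagonists and receptors. Besides Gdf6, Bmp3, an osteoblast product that limits bone mass, was at 10.4 RPKM against 0.262, 1.95, 6.13, 0.969, 3.86 and 1.04, Bmp8a at 16.6 against 1.09, 9.22, 7.36, 2.28, 5.97 and 1.52, Gdf5, a related ligand of joints, at 3.4 against 0.49, 2.09, 1.41, 1.39, 0.412 and 0.559, and Bmp7 at 11.5 with 12.6 in cluster 2. Bmp4 was at 6.75 RPKM against 8.23 to 28.1 and Bmp2 at 55.1 against 28.4 to 57.6. Of 19 ligands, 17 had at least 50 counts and 5 lay above and 2 below (median 0.24), or 8 above and 0 below with TMM factors (median 0.68). Among antagonists and targets, Fst, follistatin, was at 2.06 RPKM against 63.5, 10.8, 15.6, 98.4, 30.7 and 47.9, Fstl1 at 18.4 against 65.98 to 419, and the BMP target Id3 at 169.6 against 331 to 746. Nog, noggin, went the other way at 12.3 RPKM, with 30.9 in cluster 2 and 2.17 to 3.08 elsewhere. Of 20 antagonists and targets, 17 had at least 50 counts and 1 lay above and 6 below (median -0.40), or 2 above and 4 below with TMM factors (median -0.06). Of 10 BMP and TGF-beta receptors, 8 had at least 50 counts and 0 lay above and 2 below (median -0.58), or 0 above and 1 below with TMM factors (median -0.24).

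In the Wnt pathway the secreted antagonists split. Dkk1 was highest in cluster 6, at 6.62 RPKM against 0.0174, 2.81, 4.28, 0.563, 1.77 and 0.199. Wif1 was at 282 RPKM against 24.03, 102, 70.2, 377, 96.6 and 85.9, second to cluster 4. Sfrp2 was at 1.43 RPKM from 96 counts against 127, 51.7, 15.2, 302, 157 and 179.5, 10.6-fold below cluster 3 (95% interval 8.6 to 13.3). Sfrp4 was at 17.4 RPKM against 400.4, 102, 1329, 344, 146 and 349.8. The difference to the median was -5.88 for Sfrp2 and -4.24 for Sfrp4. Of the ligands, Wnt5b was at 27.2 RPKM against 2.82 to 15.8 and Wnt4 at 7.5 with 20.6 in cluster 2. Of 37 genes, 27 had at least 50 counts and 6 lay above and 6 below (median 0.11), or 7 above and 6 below with TMM factors (median 0.43). Some hedgehog and FGF genes were high in clusters 6 and 2: Ihh, the ligand of maturing cartilage cells, was at 12.4 RPKM with 19 in cluster 2 and 0.148 to 0.51 elsewhere, its receptor and target Ptch1 at 4.22 with 8.71, and Fgfr3, which restrains cartilage growth, at 46.4 with 29.2. Of 13 hedgehog genes, 10 had at least 50 counts and 2 lay above and 1 below (median -0.06), or 2 above and 0 below with TMM factors (median 0.29), and of 27 FGF and Notch genes, 19 did and 3 lay above and 5 below (median -0.40), or 3 above and 3 below with TMM factors (median -0.15). Fgf18, a ligand of osteoprogenitors, was at 8.58 RPKM against 14.3 to 65.5 and the FGF feedback inhibitor Spry1 at 2.81 against 7.54 to 48.2.

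Some of the largest differences to the median belonged to cartilage genes, and there cluster 6 was not alone. Col2a1, the collagen of cartilage (chr15:97975602-98004695), was at 10691 RPKM against 195, 9608, 136, 3077, 233 and 185, and took 6.42% of all counts in cluster 6. Clusters 6 and 2 differed by 0.15 on the log2 scale, cluster 4 was the third, and clusters 1, 3, 5 and 7 were far lower. Panx3, a channel of enlarging cartilage cells and osteoblasts, had a difference of 5.67, at 153 RPKM against 1.91, 101, 1.3, 3.21, 1.98 and 2.05. Acan, aggrecan, was at 354 RPKM against 8.7, 320.5, 9.49, 50.2, 11.03 and 12.9. Sox9, the factor that specifies cartilage, was at 166 RPKM with 178 in cluster 2 and 45.1 to 98.1 elsewhere. The list of 26 cartilage genes was the most shifted of all 40 lists: each had at least 50 counts, and 21 lay above and 0 below (median 3.62), or 22 above and 0 below with TMM factors (median 4.05). The lists were chosen with earlier results of these data known, so this rank only describes them. Of the 26, 8 were highest in cluster 6 and 0 passed 2-fold above the highest of the others.

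Within the cartilage genes the balance between clusters 6 and 2 varied with the gene. Several were higher in cluster 2: Col10a1 was at 378 RPKM with 670.3 in cluster 2, Ihh was given above, Snorc was at 476 with 1903, Ucma at 115 with 429, and Col9a2 at 549 with 1147. Matn3 was at 687 RPKM with 691, Col9a1 at 643 with 703, Cnmd, chondromodulin, at 1180.1 with 1026, and Epyc at 104 with 99.5, all close in the 2 libraries. Other genes of this pattern included Col9a3 at 1297 RPKM with 1660.0 in cluster 2, Matn1 at 91.8 with 113, Hapln1, the link protein of aggrecan, at 396 with 525, Fxyd2 at 68.2 with 179.8 and Il17b at 32.9 with 95.2, where the remaining 5 libraries reached at most 247, 3.78, 36.8, 6.01 and 1.79. Col11a2, Panx3 and Fgfr3 were higher in cluster 6, with differences to cluster 2 of 0.81, 0.59 and 0.65. Prg4, lubricin of the joint surface, was at 362 RPKM against 529, 252, 2523, 1091, 200.4 and 321. Cytl1 was at 884 RPKM against 15.8, 358, 209, 1998, 68.4 and 93.2, second to cluster 4. Cluster 2 was the next library more widely. It was the highest of the other 6 for 295 of the 475 genes above the median (62.1%). Cluster 3 came next with 94 genes, followed by clusters 7, 4, 5 and 1 with 35, 34, 16 and 1. The same share over all genes was not counted, so 62.1% cannot be read as a particular link between clusters 6 and 2. Cluster 2 had more genes past 2-fold above the median of its own 6 counterparts than any other library, 985 with RPKM. Of the 475 genes, 251 were highest in cluster 6, 168 were higher in cluster 2 than in cluster 6, and 283 lay within 2-fold of cluster 2. When cluster 2 was set aside, 150 of the 475 genes passed 2-fold above each of the remaining 5 libraries but not above cluster 2. Clusters 3 and 5 were the partners for a different group: Bglap, Ifitm5, Dmp1, Slc36a2 (43.8 RPKM with 42.1 and 24.02 in clusters 3 and 5), Cpz (152 with 118 and 57.2) and Col22a1 (43.4 with 48.6 and 16.4). Whether single cells of cluster 6 carried bone and cartilage transcripts together, or separate cells did, cannot be told apart in bulk RNA.

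**Figure D4:**
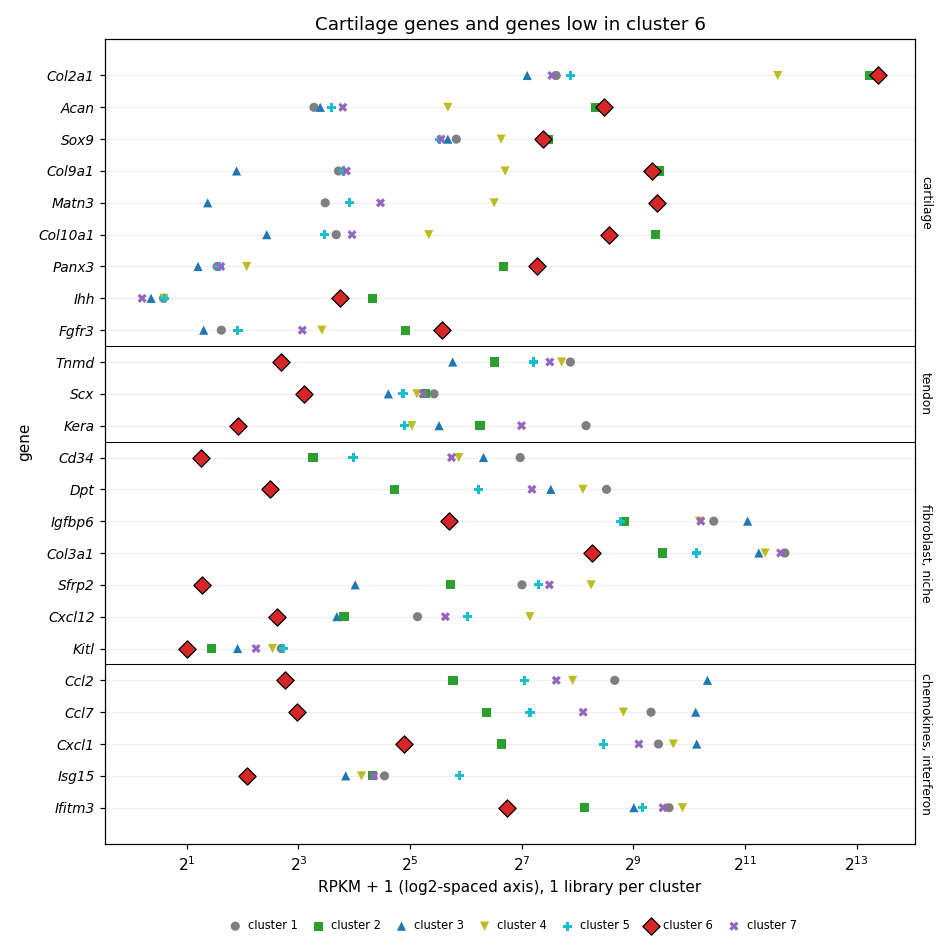
RPKM + 1 on a log2-spaced axis for 24 genes in the 7 libraries. For the cartilage genes at the top, clusters 6 (red diamonds) and 2 (green squares) sit together at the right with cluster 4 next for Col2a1 and Acan, and for the tendon, fibroblast, niche, chemokine and interferon genes below, cluster 6 is the leftmost symbol.

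Tendon and ligament genes, which share a lineage with cartilage and bone, were low. Tnmd, tenomodulin (chrX:133850980-133865577), was at 5.42 RPKM against 233, 90.2, 53.3, 209, 147 and 181, 9.83-fold below cluster 3 (95% interval 8.57 to 11.3). Scx, scleraxis, the tendon transcription factor, was at 7.56 RPKM against 42.1, 37.7, 23.4, 33.8, 28.3 and 36.6. Kera, keratocan, was at 2.78 RPKM against 284, 75.3, 44.9, 31.7, 28.8 and 127. Fmod, fibromodulin, went the other way at 1474 RPKM, the highest of the 7, against 544 to 1288. Of 10 genes, each with at least 50 counts, 0 lay above and 7 below (median -2.36), or 1 above and 7 below with TMM factors (median -2.08).

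Genes of Sca-1 and CD34 positive fibroblast-like progenitors formed a large low group. Sca-1 was one of the sorted proteins, so the gate and the state of the cells cannot be told apart for them. Cd34 was at 1.39 RPKM against 125, 8.59, 78.7, 57.6, 14.8 and 52.5. Dpt, dermatopontin, was at 4.59 against 366, 25.2, 183, 273, 73.9 and 144. Igfbp6, a binding protein of insulin-like growth factors, was at 50.6 RPKM against 1389, 459, 2116, 1165, 436 and 1183. Cluster 2 was the next lowest for Cd34 and Dpt, and Cd34 in cluster 6 was 6.18-fold below cluster 2 (95% interval 5.47 to 7.01). Cd248, endosialin, was at 1.6 RPKM against 112, 5.74, 158, 69.2, 16.7 and 44.6. Mfap4, an elastic fibre protein, was at 1.12 RPKM against 76.7, 58.8, 3.08, 397, 202 and 126. Gsn, gelsolin, was at 384 RPKM against 6886, 599, 3181, 7519.5, 1112 and 5931. Fbln2, fibulin 2, was at 1.75 RPKM against 14.8 to 125, Apod at 2.91 against 32.1 to 365, Ccn3 at 3.78 against 50.4 to 314 and Prss23 at 1.11 against 14.3 to 49.8. The exceptions were Nt5e, CD73, at 66.7 RPKM against 8.99, 35.7, 12.1, 16.98, 8.23 and 22.1, the highest of the 7, and Pcolce2 at 86.2 with 147 in cluster 2. Of 28 genes, 24 had at least 50 counts and 2 lay above and 18 below (median -1.67), or 2 above and 13 below with TMM factors (median -1.40). The summed RPKM of the list was 1138 in cluster 6 and 12611, 2016, 11125, 12392, 2909 and 9666 in the others. Other members fell under the minimum: Mfap5 had 36 counts, Clec3b 16 and Thy1 10, while the other clusters had 16.7 to 271, 28.8 to 209 and 2.17 to 14.7 RPKM. In all, 146 genes had under 50 counts in cluster 6 and at least 50 in each of the other 6 libraries, and these were outside the 12587 genes counted above, so the count of low genes leaves them out. Among them, besides Mfap5 and Clec3b, were Cygb with 47 counts, Inmt with 11, Ccl11 with 6, Dpep1 with 19 and Ostn, a secreted peptide of bone, with 28, whose medians over the other clusters were 50.98, 31.3, 28.5, 24.5 and 19.01 RPKM.

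Niche factors were low as well. Cxcl12, the chemokine that keeps blood stem cells in the marrow, was at 5.12 RPKM against 34.1, 13.1, 11.9, 141, 64.4 and 48.6. Kitl, stem cell factor, was at 0.994 RPKM against 5.46, 1.73, 2.76, 4.8, 5.64 and 3.73. Vcam1 was at 3.24 RPKM against 14.5, 3.67, 9.35, 26.2, 21.4 and 26.7. Igf1, the growth factor of marrow stroma, was at 0.773 RPKM against 37.8, 14.4, 10.9, 38.7, 34.1 and 29.2, 14.1-fold below cluster 3 (95% interval 12.4 to 16.2). Lepr, the leptin receptor that marks niche cells, was at 3.32 RPKM against 3.57, 2.88, 4.63, 11.04, 7.11 and 12.4, above cluster 2 and close to cluster 1. Of 25 niche genes, 20 had at least 50 counts and 1 lay above and 14 below (median -1.64), or 1 above and 12 below with TMM factors (median -1.40). Agt, angiotensinogen, was the member on the high side, at 38.01 RPKM against 7.22 to 31. Among adipocyte genes Adipoq had 20 counts and Pparg 23, Cebpb, a factor that many cell types use, was the most abundant at 223 RPKM against 308 to 655, Lpl was at 1.01 RPKM against 1.82 to 31.8, and Fabp4 at 1.62 against 5.19 to 22.2. Of 20 adipocyte genes, 16 had at least 50 counts and 0 lay above and 4 below (median -0.51), or 0 above and 2 below with TMM factors (median -0.22). In the insulin-like growth factor axis, Igfbp3 was at 1.18 RPKM against 15.2 to 109 and Igfbp4 at 13.7 against 37.4 to 238; of 17 genes, 14 had at least 50 counts and 1 lay above and 7 below (median -1.06), or 1 above and 5 below with TMM factors (median -0.64).

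Chemokine and interferon genes held some of the lowest values relative to the other clusters. Ccl7 and Ccl2, neighbouring genes on chromosome 11 whose products attract monocytes, were at 6.88 RPKM against 637, 81.4, 1109, 451, 141 and 274 and 5.74 against 405, 53.6, 1284, 239.9, 131 and 196. They stood 11.8-fold below cluster 2 (95% interval 10.1 to 13.9) and 9.33-fold below cluster 2 (95% interval 8.05 to 10.9), and the highest values were in cluster 3. Cxcl1 was at 28.9 RPKM against 98.3 to 1123, Il6 at 5.12 against 19.7 to 191, and Nfkbia, the feedback inhibitor of NF-kB, at 212 against 494 to 1107. Il11, a cytokine made by osteoblasts, was at 19.8 RPKM with 48.1 in cluster 2 and 3.33 to 12.7 elsewhere, and Nos2 was highest in cluster 6 at 3.38 against 0.248 to 2.01. Of 27 inflammatory genes, 20 had at least 50 counts and 2 lay above and 12 below (median -1.22), or 2 above and 8 below with TMM factors (median -0.84). Of 25 interferon-stimulated genes, 18 had at least 50 counts and 0 lay above and 8 below, with the same counts for TMM factors (median -0.84, or -0.67 with TMM factors). Isg15 was at 3.22 RPKM against 13.4 to 57.9, Bst2 at 7.63 against 28.2 to 46.2, and Ifitm3 at 105 against 278 to 942, while Ifit3 was at 10.8 against 3.5 to 9.75. Complement genes also held depleted members, led by Serping1, the C1 inhibitor, at 7.22 RPKM against 318, 56.7, 269.9, 735, 200.3 and 547. C1s1, a complement protease, was at 1.69 RPKM against 11.2 to 127. Of 19 complement genes, 11 had at least 50 counts and 1 lay above and 5 below (median -0.02), or 3 above and 5 below with TMM factors (median 0.41). Of 28 immediate early genes, which respond to handling of cells, each with at least 50 counts, 0 lay above and 6 below (median -0.70), or 1 above and 2 below with TMM factors (median -0.32), with Fos at 787 RPKM against 1004 to 2642. The part of cell handling in these differences was not tested.

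**Figure D5:**
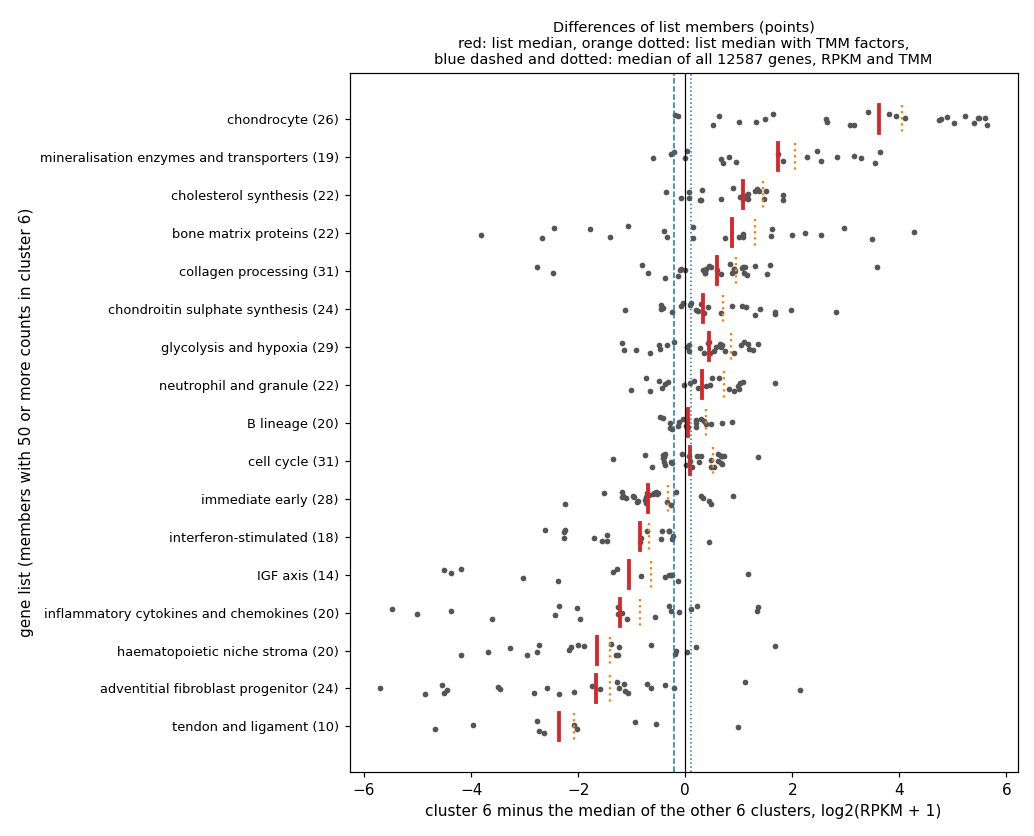
Each point is a list member with 50 or more counts in cluster 6, placed by its difference to the median of the other 6 clusters on the log2(RPKM + 1) scale. The list medians (red) run from 3.62 for cartilage to -2.36 for tendon, and TMM factors (orange, dotted) move each of the lists shown to the right, as they move the median of all genes from -0.21 to 0.11 (blue).

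Transcripts of blood and vessel cells were read in the same way, as values of the whole lists. The 22 neutrophil genes summed to 18895 RPKM in cluster 6 and 17106, 21117, 12689, 21646, 45784 and 37262 in the others, with S100a9 the most abundant at 5211; each of the 22 had at least 50 counts, and 4 lay above and 1 below (median 0.31), or 8 above and 0 below with TMM factors (median 0.72). Elane and Mpo, enzymes of early granulocytes, were at 377 and 297 RPKM in cluster 6, the second highest after cluster 7, with 479 and 395 there. The matched erythroid genes, 19 of 20, summed to 1674 RPKM against 14917, 14960.0, 7505, 2308, 105470.0 and 7498, the lowest of the 7 libraries, with Hba-a1 the most abundant. B cell genes (22) summed to 412 RPKM against 393, 447, 205, 372, 400.1 and 765, with Ighm the most abundant at 110.3, and macrophage genes (20) to 2028 against 1376, 1611, 846, 2666, 2945 and 5112, with Lyz2 at 1487. The pan-haematopoietic list (20) summed to 686 RPKM against 636, 512, 416, 679, 866 and 1371. Endothelial genes (20) summed to 14.3 RPKM against 53.1, 37.2, 40.6, 26.5, 71.5 and 39.3, with Pecam1 at 1.33 and Cdh5 at 28 counts. Cluster 6 was the lowest in red cell and endothelial transcripts and in the middle of the range for myeloid and B cell transcripts. Of the other blood lists, T and NK genes (19, 4 with at least 50 counts), osteoclast genes (18, 12) and megakaryocyte genes (15, 5) had 0, 2 and 0 members more than 2-fold above and 0, 4 and 2 more than 2-fold below the median. With TMM factors these were 1, 2 and 0 above and 0, 2 and 2 below. Ctsk, the osteoclast protease cathepsin K, which fibroblasts also make, was at 112 RPKM against 161 to 455. Of 19 pericyte and smooth muscle genes, 13 had at least 50 counts and 1 lay above and 6 below, with the same counts for TMM factors (median -0.99, or -0.72 with TMM factors), with Acta2 at 4.75 RPKM against 10.4 to 84.9, while Cspg4, NG2, was at 43.7 with 43.7 in cluster 2. The part of these cell types in the differences given above was not tested.

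Genes of division and metabolism, proteases and limb patterning completed the lists. Over all 12587 genes, 475 (3.77%) lay above and 1063 (8.45%) below with RPKM, and 876 and 502 with TMM factors. Of 32 cell cycle genes, 31 had at least 50 counts and 1 lay above and 1 below (median 0.08), or 6 above and 0 below with TMM factors (median 0.51); Mki67 was at 5.75 RPKM against 3.14 to 12.96, and Cdkn1c, a cell cycle inhibitor of cartilage, at 158 with 284 in cluster 2. Of 30 glycolysis and hypoxia genes, 29 had at least 50 counts and 6 lay above and 2 below (median 0.45), or 11 above and 0 below with TMM factors (median 0.85); Pfkl was at 22.6 RPKM against 7.08 to 18.5, Hif1a at 63.2 against 25.7 to 49.5, and Hk2 at 21.7 against 24.2 to 64.6. Of 24 matrix proteases and inhibitors, all with at least 50 counts, 3 lay above and 9 below (median -0.81), or 5 above and 5 below with TMM factors (median -0.43); Mmp13, the collagenase of enlarged cartilage cells and osteoblasts, was at 127 RPKM against 345, 125, 64.8, 338, 408 and 803, close to cluster 2 and below clusters 1, 4, 5 and 7. Timp2 was at 156 RPKM against 232 to 886 and Cpe, carboxypeptidase E, at 680.2 against 137 to 391. Of 28 Hox and limb patterning genes, 20 had at least 50 counts and 0 lay above and 2 below, with the same counts for TMM factors (median -0.47, or -0.23 with TMM factors), the low ones being Prrx1 at 2.11 RPKM against 6.94 to 13.3 and Prrx2 at 5.6 against 21.5 to 56.1.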

How the data were processed

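The authors deposited a table of raw counts per gene with the gene length, 1 column per library, made from libraries of poly(A)-selected RNA. The processing notes of the submitters name TopHat2, Partek 2.2 and mm9, while the deposited coordinates fit GRCm38: 96.3% of 23262 symbols lay within 10 kb of their RefSeq GRCm38.p6 position. How reads were counted, and whether strand was used, is not given in the sources used here. Columns were read through their cluster numbers, and the input library was not used here.

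The Rn18s-rs5 locus, Lars2 and mmu-mir-689-2 were left out, and RPKM was computed from counts, length and the remaining total. Genes with 50 or more counts in cluster 6 were compared on log2(RPKM + 1). Genes were named where they were among the 15 with the largest difference to the highest or median of the others, among the 15 farthest below their lowest or median, or members of a list. Unnamed models, pseudogenes and immunoglobulin segments were passed over there, and the 27 genes more than 2-fold above every other library are all given. Genes just outside the limits were named after their values were seen, and 40 lists were read. Members and lists were chosen with earlier results of these data known, and those of cholesterol and chondroitin sulphate synthesis after their values were seen. Symbols were present for 12370 of the 12587 genes. With 1 library per population no model was fitted. edgeR 4.0.16 and DESeq2 1.42.0 (R 4.3.3) gave scaling factors only. Other steps used pandas 2.3.3 and numpy 2.4.6 in Python 3.11.15, with intervals from scipy 1.17.1 and plots from matplotlib 3.10.9, and the counting of genes was tested on simulated data.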

Additional observations from a re-analysis of the deposited data

How the results depend on the processing

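The main counts were 475 genes more than 2-fold above and 1063 more than 2-fold below the median of the other clusters. By the same limit, 27 lay above the highest and 189 below the lowest. With TMM factors these counts were 876, 502, 101 and 96, with DESeq2 size factors 859, 508, 96 and 96, and with a pseudocount of 0.1 they were 759, 1651, 49 and 340. Leaving collagen genes out of the total, an alternative chosen after seeing the data, gave 753, 637 and 66 for the first 3 counts. Leaving out 1 library at a time gave 418 to 518 above the median, 912 to 1180 below it, 27 to 177 above the highest and 189 to 300 below the lowest. The highest values of the last 2 came without cluster 2, and 59 genes exceeded the highest by more than 2-fold without cluster 3. These last 2 counts can only grow when a library is left out. The cause of these changes was not tested. For the 61 single genes recomputed, which are those with the most extreme values and the markers and not all genes named, no difference changed its sign where it was past 2-fold. No paired analysis was possible because only 1 library was made for each population, and the spread between animals and sorts is unknown.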

Other observations

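Enzymes of cholesterol synthesis, a list chosen after single members had been seen high, had a high median. Of 22 genes, each with at least 50 counts in cluster 6, 13 lay above and 0 below (median 1.07), or 14 above and 0 below with TMM factors (median 1.46), against -0.21 over all 12587 genes. Sqle, squalene epoxidase, was at 15.2 RPKM against 4.15, 15.3, 4.95, 6.87, 3.6 and 4.75 in clusters 1, 2, 3, 4, 5 and 7. Msmo1, a sterol oxidase, was at 19.8 RPKM against 4.02, 17.9, 5.02, 5.53, 3.39 and 4.76. In both genes clusters 6 and 2 were the highest 2 of the 7 libraries. Insig1, the feedback sensor of the pathway, was at 51.2 RPKM with 45.1 in cluster 2 and 14.9 to 28.8 elsewhere. Ebp was lower than in all others at 15.7 RPKM against 18.5 to 22.6, and Srebf2, the transcription factor of the pathway, was at 19.8 against 8.89 to 22.2.

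The same was done for enzymes that build and sulphate chondroitin chains of cartilage proteoglycans, again with members already seen. Of 24 genes, each with at least 50 counts, 8 lay above and 1 below (median 0.33), or 10 above and 0 below with TMM factors (median 0.70). Chsy3, which extends the chain, was at 13.8 RPKM against 4.31, 5.92, 4.71, 5.99, 4.12 and 5.34, 2.3-fold above cluster 4 (95% interval 2.08 to 2.55). The sulphotransferase Chst3 was at 6.52 RPKM against 1.39, 2.72, 1.04, 1.45, 0.442 and 1.34, 2.4-fold above cluster 2 (95% interval 2.15 to 2.69). Both belonged to the 27 genes more than 2-fold above every other library. Papss2, which makes the sulphate donor, was at 151 RPKM with 225 in cluster 2 and 16.4 to 37.7 elsewhere, and Slc26a2, the sulphate carrier, at 17.5 with 19.5 and 2.81 to 5.94. Chst11 was higher in cluster 2, at 48.9 RPKM against 18.4 in cluster 6, and Chst7 was the member on the low side, at 0.929 against 2.25 to 7.58.

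Each other library was also set against its own 6 counterparts with the same rule. The number of genes more than 2-fold below the lowest of the rest was 189 for cluster 6, against 17, 4, 44, 1, 10 and 4 for clusters 1, 2, 3, 4, 5 and 7. The number more than 2-fold above the highest of the rest was 27 for cluster 6, against 27, 153, 68, 24, 128 and 70. Cluster 6 had the highest number of depleted genes and cluster 2 the highest number of raised ones with RPKM scaling. The genes with 50 or more counts differ between the libraries. With TMM factors cluster 6 had 96 genes below the lowest and 101 above the highest by more than 2-fold. The other libraries were counted with RPKM only, so the ranking with other scalings was not tested.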
